A study of Mus musculus with 4 samples.

Results

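Smooth muscle contractile genes were examined in mouse embryo fibroblasts (MEFs) that lack stathmin, the microtubule-destabilizing protein encoded by STMN1. The set holds 10 genes, Acta2, Actg2, Cnn1, Cnn2, Tagln, Myh11, Smtn, Mylk, Cald1 and Myocd. Every probe that carries one of these gene names on the array was taken, which gave 19 of 41174 probes and 10 of 27962 gene names. The study set STMN1-/- against STMN1+/+ MEFs on 4 Agilent arrays of 60-mer oligonucleotides, each of which took labelled RNA of both genotypes. STMN1-/- RNA carried Cy3 on arrays 1 and 2 and Cy5 on arrays 3 and 4. The STMN1-/- cells carry a neomycin cassette in the STMN1 gene, whereas in STMN1+/+ cells intron III of the gene is intact. Both genotypes are cultured MEF lines of the strain C57BL/6, made from single embryos of matings between STMN1+/- mice, and no treatment is named for either. The arrays were color-swap duplicates of mRNA that also served for qRT-PCR, for which more than 1 cell line of each genotype was used. How many lines or embryos an array stood for, and which arrays held the same RNA extract, is not given in the sources used here. The p-values therefore measure no more than how the arrays varied, and that variation may be technical. Array, slide and scan cannot separate the genotypes, because both were measured on every array and all 4 arrays share 1 slide and 1 scan.

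Smooth muscle contracts when myosin heavy chain (Myh11) pulls on filaments of smooth muscle actins (Acta2, Actg2), after myosin light chain kinase (Mylk) has phosphorylated the light chain. Calponins (Cnn1, Cnn2), transgelin (Tagln), smoothelin (Smtn) and caldesmon (Cald1) bind those actin filaments. Most of these genes are driven by serum response factor (Srf) at CArG boxes, with myocardin (Myocd) or its relatives as coactivators. Fibroblasts in culture express many of the same genes, above all when they take on a myofibroblast state, and cultures of embryonic cells can also hold smooth muscle cells. In bulk RNA, fewer cells of a type and less RNA per cell cannot be told apart.

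The ratios below rest on what each probe captures, so the probes on which the results turn are shown first. The probe of Cnn1, which was up-regulated, lies at chr9:21988172-21988231 (plus strand, mouse build mm7, as the array files give it), and the brighter probe of Myocd, which was down-regulated, at chr11:65258470-65258529 (minus strand). The first 30 bases of each, 5′ to 3′, are as follows.
Cnn1 A_51_P350817: acacacgcattttggttttgcagtgactgg
Myocd A_51_P469942: gtagttttccaaacgagaacacaattgcac
An Acta2 probe is shown whole because the sarcomeric, smooth muscle and cytoplasmic actins are near-identical proteins, so that a probe in a coding sequence could capture more than 1 of them. The span of this probe on the genome, chr19:33949738-33952992 on the minus strand, is 3255 bases, so it crosses an exon junction. Capitals mark the longest stretch of at least 15 bases that the probe shares with a probe of another gene name on the array, on either strand.
Acta2 A_51_P450957: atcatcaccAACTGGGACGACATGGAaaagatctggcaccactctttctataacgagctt
The Acta2 probe shares 17 bases with the probe of an unnamed transcript, TC1459687. Capture of other actin transcripts by the actin probes was not tested.

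The Stmn1 probes were lower in STMN1-/- MEFs on all 4 arrays. For A_52_P319161 the processed signal averaged 6014 ± 777 units in STMN1-/- MEFs and 26686 ± 1835 units in STMN1+/+ MEFs (SD, n = 4 arrays each), a 4.46-fold decrease. For A_51_P495641 it averaged 170 ± 10.5 kU (1 kU is 1000 units) in STMN1-/- MEFs and 224 ± 13.1 kU in STMN1+/+ MEFs, a 1.31-fold decrease. The study describes a STMN1 probe of this array, without saying which, as matching another chromosome too. By qRT-PCR and western blotting the study reports neither STMN1 mRNA nor its protein in STMN1-/- MEFs. The signal left in STMN1-/- MEFs therefore cannot be read as STMN1 transcript. The test took the 27669 probes that had a usable spot and stood well above background for 1 genotype or both on at least 1 array. Saturated probes numbered 0 on every array. Between arrays of the same dye orientation the log2 ratios of all tested probes correlated at r = 0.689 and 0.704, and between arrays of opposite orientation at 0.445 to 0.490. The cells expressed fibroblast markers, whose summed signals were 4020 to 6436 kU in STMN1-/- MEFs and 3741 to 4355 kU in STMN1+/+ MEFs per array. Of these 10 markers, 8 were up-regulated in STMN1-/- MEFs, 1 was down-regulated and 1 did not pass.

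Among the 10 genes, each represented by its brightest probe, Cnn1 and Actg2 were up-regulated in STMN1-/- MEFs, Myocd was down-regulated, and the other 7 did not pass the test (two-sided limma test of the log2 ratio against 0, with p-values adjusted by Benjamini-Hochberg across the tested probes and a threshold of 0.05). In the same test 12.2% of all genes were up-regulated, 11.6% were down-regulated and 23.9% changed in either direction, so that 3 of 10 is a share near the background. The median log2 ratio of STMN1-/- over STMN1+/+ was 0.15 over the 10 genes and 0.00 over all 18742 genes tested. Without its sign, the median log2 ratio was 0.28 for the 10 genes and 0.17 for all genes. By probe, 18 of the 19 could be tested, of which 3 were up-regulated, 1 was down-regulated and 14 did not pass, against 11.2% of all probes in each direction and 22.4% in either. Of the 15 probes with a value on all 4 arrays, 6 were higher and 1 was lower in STMN1-/- MEFs on every array, against 22.6% and 23.6% of all probes. Signals of the genotypes did not overlap for 3 of the 15, with STMN1-/- above for 2 and below for 1. Among all probes the share was 11.1% in each direction, so 3 of 15 is near the background. The ratios of the 10 genes ran from -0.86 for Myocd to 0.55 for Cnn1.

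**Figure D1:**
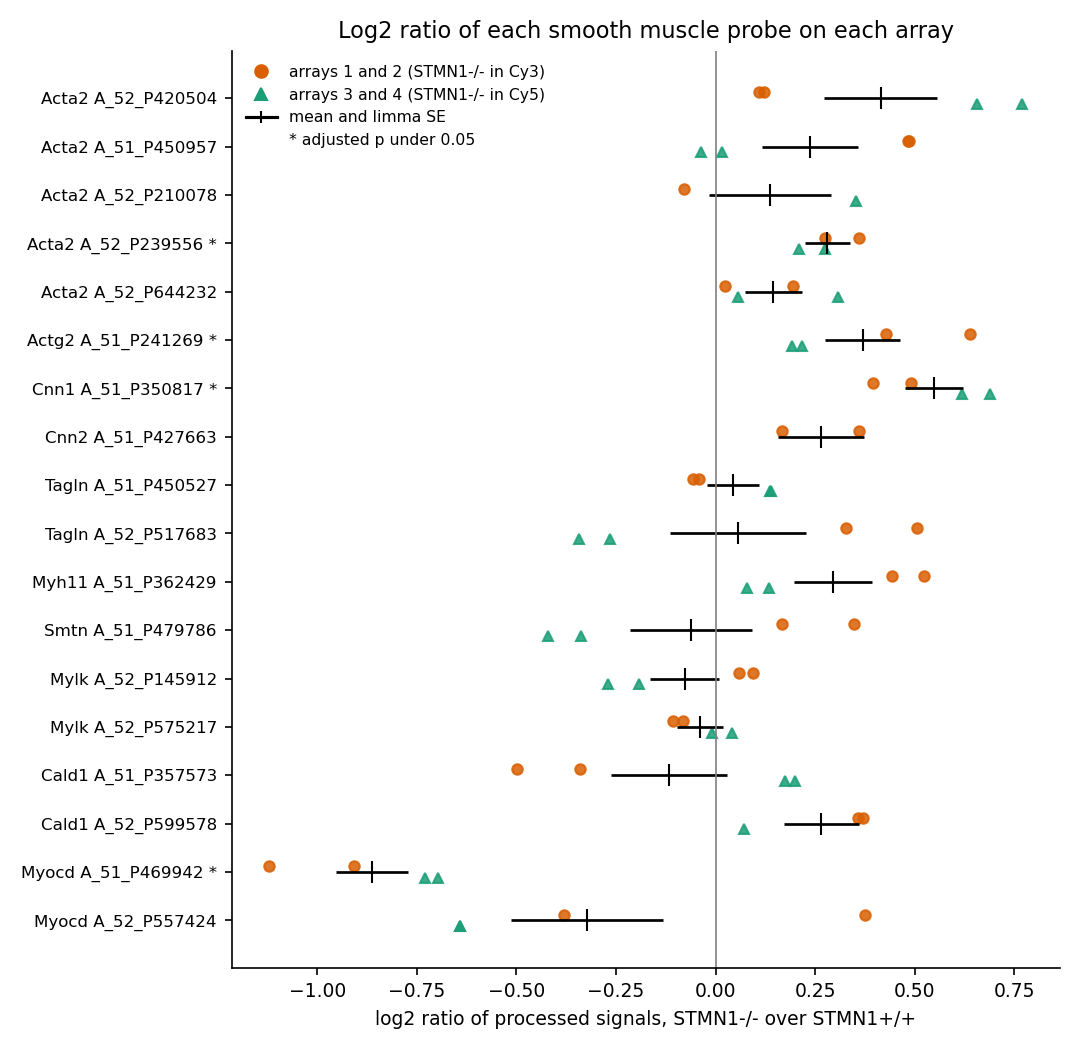
Log2 ratio of STMN1-/- over STMN1+/+ MEFs (horizontal axis) for each of the 18 tested probes of the 10 genes (vertical axis). Circles are arrays 1 and 2, triangles arrays 3 and 4, and black bars the mean with limma's SE. For Cnn1 the 4 points lie together between 0.39 and 0.69, and for Myocd A_51_P469942 between -1.12 and -0.70, whereas for Smtn, Cald1 A_51_P357573 and Tagln A_52_P517683 the circles lie on one side of 0 and the triangles on the other.

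Cnn1 encodes calponin 1, which binds actin filaments and lowers the activity of the myosin motor. Its single probe gave 537, 522, 525 and 545 kU in STMN1-/- MEFs on arrays 1 to 4, against 409, 372, 325 and 355 kU in STMN1+/+ MEFs. Every STMN1-/- signal was above every STMN1+/+ signal, and the STMN1-/- signals were close together. The log2 ratio was 0.55 ± 0.07 (limma SE, n = 4), a 1.46-fold increase, with an adjusted p of 0.00827 (limma). This call held under all 14 alternatives, at an adjusted p of 0.00306 to 0.0445 (limma, or the methods' t-test). The Cnn1 promoter, as 250 bases before and 50 after the start site, held no exact match to the CArG box, as described for the promoters below.

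Cnn2, calponin 2, is the form of non-muscle as well as smooth muscle cells. Its probe was usable on 2 arrays, since the spot was an outlier on arrays 3 and 4, and both usable arrays had STMN1-/- RNA in Cy3. It gave 267 and 250 kU in STMN1-/- MEFs on arrays 1 and 2, against 208 and 222 kU in STMN1+/+ MEFs. The log2 ratio of 0.26 ± 0.11 (SE, n = 2) did not pass (adjusted p = 0.198, limma), and it was -0.042 when the outlier spots were kept.

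Actg2 is the enteric smooth muscle actin. The signals were 211, 208, 167 and 219 kU in STMN1-/- MEFs on arrays 1 to 4, against 136, 155, 146 and 188 kU in STMN1+/+ MEFs. STMN1-/- was the higher genotype on each of the arrays, but the signals of the genotypes overlapped across arrays. The log2 ratio was 0.37 ± 0.10 (SE, n = 4), a 1.29-fold increase, at an adjusted p of 0.0497 (limma), just inside the threshold. The call was lost under 8 of 14 alternatives, among them each array left out, where the log2 ratio was 0.28 to 0.43 and the adjusted p 0.0845 to 0.152. The ratios were 0.64 and 0.43 on arrays 1 and 2 and 0.19 and 0.22 on arrays 3 and 4.

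Acta2, the vascular smooth muscle actin and the usual marker of myofibroblasts, has 5 probes, of which 1 passed the test. The brightest, A_52_P420504, is printed in 10 spots per array. It gave 1461, 1511, 1732 and 1937 kU in STMN1-/- MEFs on arrays 1 to 4, against 1354, 1388, 1100 and 1137 kU in STMN1+/+ MEFs. Every STMN1-/- signal was above every STMN1+/+ signal, yet the gap was narrow on arrays 1 and 2 and wide on arrays 3 and 4. The log2 ratio was 0.41 ± 0.14 (SE, n = 4), a 1.33-fold difference, and did not pass (adjusted p = 0.10, limma).

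The 10 spots show how far that split exceeds the noise of printing. The SD of the log2 ratio between usable spots was 0.07 to 0.11 within an array, whereas the mean ratio was 0.12 on arrays 1 and 2 and 0.71 on arrays 3 and 4. The other bright Acta2 probe, A_51_P450957, split the other way, with log2 ratios of 0.48 and 0.49 on arrays 1 and 2 and 0.02 and -0.04 on arrays 3 and 4. Its signals were 314, 331, 286 and 324 kU in STMN1-/- MEFs and 225, 236, 283 and 332 kU in STMN1+/+ MEFs. The mean over the arrays was 0.24 ± 0.12 (SE, n = 4, adjusted p = 0.226, limma). Within an array, the difference between these 2 Acta2 probes ran from -0.37 on array 1 to 0.81 on array 4.

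Of the dimmer Acta2 probes, A_52_P239556 was up-regulated in STMN1-/- MEFs. It gave 3265, 3455, 3134 and 4132 units in STMN1-/- MEFs, against 2544, 2855, 2592 and 3571 units in STMN1+/+ MEFs. The ratios were even, between 0.21 and 0.36, with a mean log2 ratio of 0.28 ± 0.06 (SE, n = 4, 1.21-fold, adjusted p = 0.0258, limma). The call was lost under 6 of 14 alternatives, each array left out included (adjusted p 0.0758 to 0.0964). A_52_P644232 had a log2 ratio of 0.15 ± 0.07 (adjusted p = 0.211, limma), and A_52_P210078, usable on arrays 1 and 3 alone, gave -0.08 and 0.35. All 5 Acta2 probes had a mean log2 ratio above 0, from 0.14 to 0.41. However, the array annotates A_52_P239556 and A_52_P644232 each with a transcript other than the one it gives for the remaining Acta2 probes. Whether A_52_P239556 and A_52_P644232 capture the main Acta2 transcript was not tested. When a gene was instead given the median of its probes on each array, these dimmer probes included, Acta2 passed the test at 0.23 ± 0.05 (adjusted p = 0.0282, limma).

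Myh11, the smooth muscle myosin heavy chain, was measured by 1 probe, whose span of 2925 bases crosses an exon junction. It gave 7875, 8833, 6895 and 7557 units in STMN1-/- MEFs on arrays 1 to 4, against 5791, 6152, 6279 and 7156 units in STMN1+/+ MEFs. STMN1-/- was above STMN1+/+ on every array, by a wide gap on arrays 1 and 2 and a narrow one on arrays 3 and 4. The log2 ratio of 0.29 ± 0.10 (SE, n = 4, 1.23-fold) did not pass (adjusted p = 0.0946, limma).

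**Figure D2:**
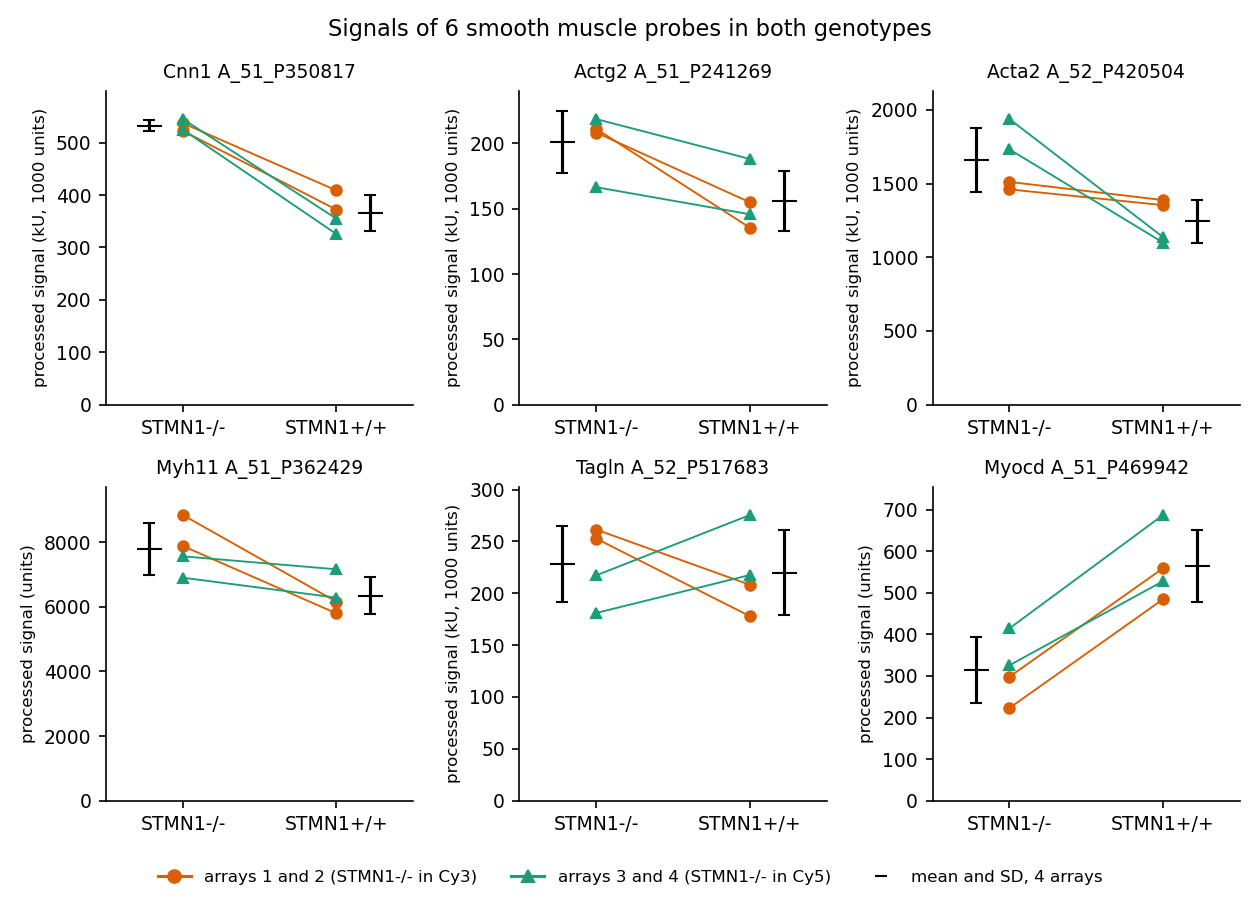
Processed signal (vertical axis, from 0) of 6 probes in STMN1-/- and STMN1+/+ MEFs. Lines join the 2 genotypes on 1 array, colors give the dye orientation, and black bars are the mean and SD over the 4 arrays. The lines of Cnn1 run down and those of Myocd run up on every array, while those of Tagln A_52_P517683 run down on arrays 1 and 2 and up on arrays 3 and 4.

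Tagln encodes transgelin (SM22α), an actin-bundling protein that is among the most abundant in smooth muscle. Neither of its 2 probes passed. A_51_P450527 gave 1063, 1057, 1122 and 1182 kU in STMN1-/- MEFs, against 1107, 1089, 1020 and 1074 kU in STMN1+/+ MEFs. The signals of the genotypes overlapped, and the log2 ratio was 0.04 ± 0.07 (SE, n = 4, adjusted p = 0.678, limma). A_52_P517683, at chr9:45888956-45889015 on the minus strand, gave 261, 253, 181 and 217 kU in STMN1-/- MEFs, against 208, 178, 218 and 275 kU in STMN1+/+ MEFs. Its ratios were 0.33 and 0.51 on arrays 1 and 2, and -0.27 and -0.34 on arrays 3 and 4. This probe had the widest gap between the orientations of any of the 15, 0.72, and it is shown whole for that reason. It shares no stretch of 15 bases with the probe of another gene.
Tagln A_52_P517683: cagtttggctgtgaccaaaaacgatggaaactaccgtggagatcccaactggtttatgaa

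Smtn encodes smoothelin, a marker of contractile smooth muscle. Its probe gave 17.1, 18.7, 14.0 and 14.6 kU in STMN1-/- MEFs, against 15.3, 14.7, 18.8 and 18.4 kU in STMN1+/+ MEFs. STMN1-/- was above on arrays 1 and 2 and below on arrays 3 and 4, and the mean log2 ratio was -0.06 ± 0.15 (SE, n = 4, adjusted p = 0.810, limma). Cald1 encodes caldesmon, which blocks myosin binding to actin. Its probe A_51_P357573 gave 27.2, 28.5, 31.7 and 38.6 kU in STMN1-/- MEFs, against 34.4, 40.3, 27.6 and 34.3 kU in STMN1+/+ MEFs. Here STMN1-/- was below on arrays 1 and 2 and above on arrays 3 and 4, the reverse of Smtn. Its mean log2 ratio was -0.12 ± 0.15 (SE, n = 4, adjusted p = 0.612, limma). The other Cald1 probe, A_52_P599578, had ratios of 0.37, 0.36 and 0.07 on arrays 1, 2 and 4 (mean 0.27 ± 0.09, adjusted p = 0.129, limma), and its spot on array 3 was an outlier.

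Mylk, the kinase that starts contraction, has 3 probes. A_52_P145912 averaged 13.6 ± 0.926 kU in STMN1-/- MEFs and 14.5 ± 1.98 kU in STMN1+/+ MEFs (SD, n = 4 arrays each). A_52_P575217 averaged 13.5 ± 1.07 kU in STMN1-/- MEFs and 13.9 ± 0.978 kU in STMN1+/+ MEFs. The genotypes overlapped for both, the mean log2 ratios were -0.08 ± 0.09 and -0.04 ± 0.06 (SE, n = 4 each), and neither passed (adjusted p = 0.566 and 0.671, limma). The third probe, A_51_P272407, was not well above background in either genotype on any array, at 32.0 to 95.8 units in STMN1-/- MEFs and 32.9 to 64.9 units in STMN1+/+ MEFs, and was not tested.

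Myocd encodes myocardin, the coactivator that switches on the smooth muscle program with Srf. The brighter probe, A_51_P469942, gave 223, 298, 326 and 414 units in STMN1-/- MEFs on arrays 1 to 4, against 485, 559, 528 and 687 units in STMN1+/+ MEFs. Every STMN1-/- signal was below every STMN1+/+ signal, and both genotypes were well above background on all 4 arrays. The log2 ratio was -0.86 ± 0.09 (SE, n = 4), a 1.82-fold decrease, with an adjusted p of 0.00461 (limma). The call held under 13 of 14 alternatives. It was lost with normexp background correction at an offset of 50 units and loess (log2 ratio -0.24, adjusted p = 0.0896, limma).

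The dimmer Myocd probe, A_52_P557424, gave 162, 139, 95.8 and 98.0 units in STMN1-/- MEFs, against 125, 181, 149 and 153 units in STMN1+/+ MEFs. It was well above background in STMN1-/- MEFs on 1 array and in STMN1+/+ MEFs on 3 arrays. STMN1-/- was above on array 1 and below on arrays 2, 3 and 4, and the log2 ratio of -0.32 ± 0.19 (SE, n = 4) did not pass (adjusted p = 0.287, limma). Without array 1, the one array on which STMN1-/- was above, it was -0.55 (adjusted p = 0.0361, limma). It did not pass with any other array left out. Over the 4 arrays left out in turn it ran from -0.55 to -0.22, with an adjusted p of up to 0.555 (limma). The array annotates the brighter probe with transcript NM_146386 and the dimmer one with NM_145136.

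The split by dye orientation was a general feature of these arrays and was wide for the contractile genes. The mean ratio of arrays 3 and 4 differed from that of arrays 1 and 2 by more than 0.5 on the log2 scale for 5 of the 15 probes, against 16.6% of all probes with 4 values, and the median gap was 0.33 for the 15 probes and 0.22 for all. It had no common direction, with STMN1-/- relatively higher on arrays 3 and 4 for 7 probes and on arrays 1 and 2 for 8. When dye was fitted as a second coefficient, which removes the split from the error but leaves 2 residual degrees of freedom at most, it passed an adjusted p of 0.05 for 0 of 27512 probes (limma), and an unadjusted p of 0.05 for 8531 of them (31%) and for 10 of the 17 member probes so fitted. In that fit Acta2, Actg2, Cnn1 and Myh11 were up-regulated and Myocd was down-regulated, of 9 genes, at unchanged log2 ratios for those 5. The share of all genes called also went up, to 20.3% up-regulated and 19.6% down-regulated. The adjusted p of Acta2 A_52_P420504 was then 0.00693 and that of Myh11 0.0117 (limma). Averaging the arrays in dye-swapped pairs, with array 1 joined to array 3 or to array 4, also gave 4 genes up-regulated and 1 down-regulated. The cause of the split was not tested.

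**Figure D3:**
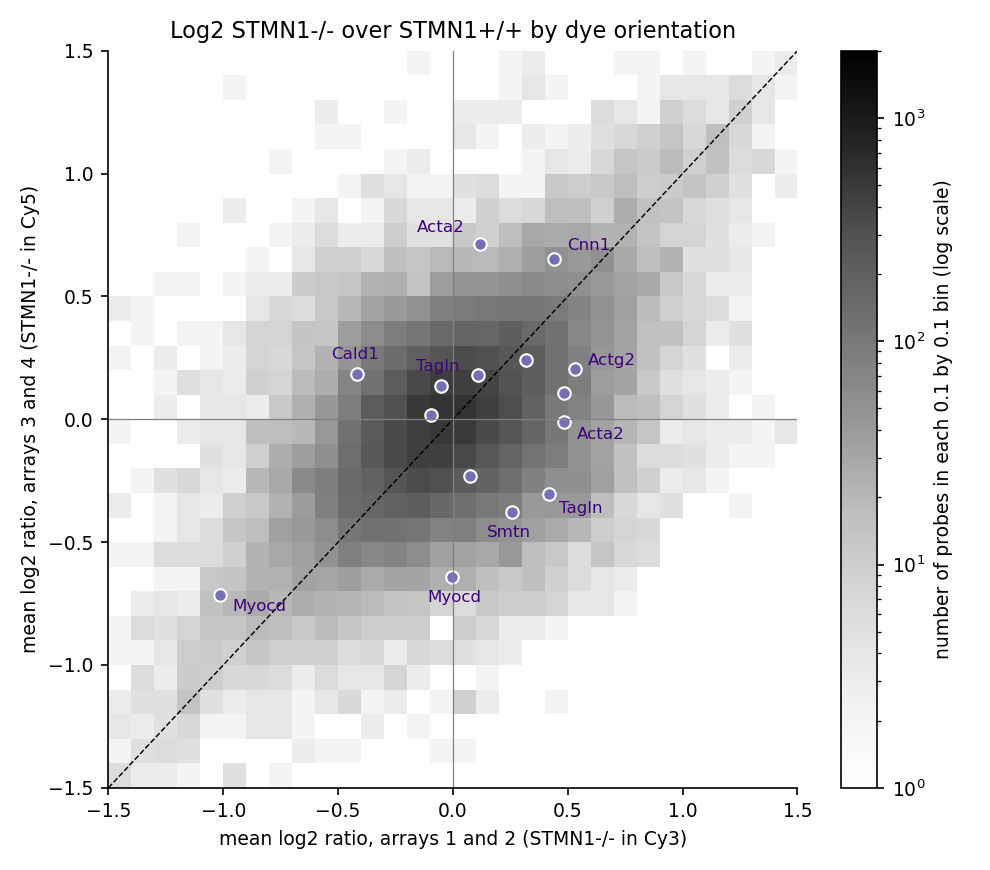
Mean log2 ratio of STMN1-/- over STMN1+/+ MEFs on arrays 1 and 2 (horizontal axis) against arrays 3 and 4 (vertical axis). The grey squares count all probes with 4 values (the few beyond ±1.5 are not drawn), purple points are the 15 member probes, and the dashed line marks equal ratios. Cnn1 and Myocd A_51_P469942 lie near the dashed line, while the brightest Acta2 probe lies at 0.12 and 0.71 and Tagln A_52_P517683 at 0.42 and -0.30.

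The promoter table of RefSeq (mouse build GRCm38.p6) held 7 promoters for 6 of the genes, Acta2, Cald1, Cnn1, Cnn2, Mylk and Smtn, each with 250 bases before and 50 after the start site. The CArG box, an Srf binding sequence of CC, a run of A or T, and GG, was the one motif searched, and it reads the same way on both strands. Exact matches alone were counted, so a box that departs from this sequence or lies outside these bases would be missed. It was found in 1 of the 7 promoters, and in 1.63% of all 32851 promoters of this length. The single match lay in the Cnn2 promoter, its first base 56 bases before the start site, and is shown with its surroundings (chr10:79988514-79988583, plus strand, GRCm38.p6), the box in capitals.
Cnn2 promoter: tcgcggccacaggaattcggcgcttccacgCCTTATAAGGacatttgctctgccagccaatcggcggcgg
Cnn2 did not pass the test.

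Around these genes, 131 genes in 11 lists of regulators, partners and relatives were taken, of which 123 could be tested. In STMN1-/- MEFs 31 were up-regulated, 17 were down-regulated and 75 did not pass, and their median log2 ratio was 0.05. Of all genes tested, 12.2% were up-regulated and 11.6% down-regulated, the background for the counts of each list and marker set. Of the regulators, Srf itself had a log2 ratio of -0.04 ± 0.11 (SE, n = 4) with signals that overlapped between genotypes. Of 21 regulators tested, 5 were up-regulated, 4 were down-regulated and 12 did not pass (median 0.00). The genes that rose were Notch3, a receptor of vascular smooth muscle (log2 ratio 0.66), 3 repressors that act downstream of Notch, and the MADS-box factor Mef2d (0.37). The Notch repressors were Heyl (2.51), Hey1 (0.83, on 3 arrays) and Hey2. Hey2 was not well above background in STMN1+/+ MEFs on any array, and was at least 1.89-fold higher in STMN1-/- MEFs (adjusted p = 0.00151, limma), taking for each STMN1+/+ array the higher of its own signal and the dimmest signal called well above background. With normexp and loess its log2 ratio was 0.15 and did not pass (adjusted p = 0.130, limma). The genes that fell were Mkl1, a myocardin relative that senses free actin (-0.36), the zinc finger factor Klf5 (-0.61), Gata6, a factor of vascular smooth muscle (-0.50), and Tcf21 (-0.82), which marks precursors of fibroblasts.

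Of 8 early targets of Srf or of its coactivators, 0 were up-regulated and 2 were down-regulated, Ankrd1 (log2 ratio -1.37 ± 0.07, SE, n = 3) and Ctgf (-0.32 ± 0.07, SE, n = 4), at a median of -0.17. At an unadjusted p under 0.05 (limma) 1 was higher, and by the methods' t-test 0 were higher and 1 was lower. The other 6, among them Fos at -0.12 and Egr1 at 0.33, did not pass. Of 10 genes of the TGF-β pathway, a main inducer of Acta2 and Cnn1 in fibroblasts, 5 were up-regulated, the ligands Tgfb1 (0.43), Tgfb2 (0.46) and Tgfb3 (0.39) and the receptors Tgfbr2 (0.38) and Tgfbr3 (0.35). Down-regulated genes numbered 2, among them Ltbp1, which holds latent TGF-β in the matrix (-0.41), and the median was 0.35.

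Of the 11 lists, the matrix genes of myofibroblasts had the largest median log2 ratio, 0.98. Of 10 tested, 9 were up-regulated and 0 were down-regulated. Col1a1, Col1a2, Col3a1 and Fn1 of this list are also among the fibroblast markers above, whose median log2 ratio was 0.90. The rise was therefore not particular to the matrix genes of myofibroblasts. By the methods' t-test 6 were higher, and 0 were lower by that test or at an unadjusted p under 0.05 (limma). Periostin (Postn) averaged 170093 ± 20661 units in STMN1-/- MEFs and 47316 ± 7463 units in STMN1+/+ MEFs (SD, n = 4 arrays each), a 3.61-fold increase. The study's RT-PCR array, run on the same mRNA, gave the opposite direction for Postn, lower in STMN1-/- MEFs. Fap, a surface protease of activated fibroblasts, rose 2.74-fold, Col1a1 2.43-fold and Col3a1 2.35-fold, while Lox, which cross-links collagen, had a log2 ratio of -0.04 on 3 arrays.

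Of the other actins, Actc1, the cardiac form, was up-regulated (log2 ratio 0.33), Actb, the cytoplasmic form, was down-regulated (-0.41), and Acta1, the skeletal form, did not pass (0.16). The relatives Cnn3, Tagln2 and Tagln3 did not pass at 0.14, -0.11 and -0.12, and 0 of them had an unadjusted p under 0.05 (limma) or passed the methods' t-test. Of 10 non-muscle myosins and light chains, 2 were up-regulated, the striated light chains Myl1 (0.72) and Myl4 (0.56), and 2 were down-regulated, Myh14 (-1.48) and Myl12a (-0.29). Myl9, the regulatory light chain that Mylk phosphorylates in smooth muscle, did not pass at a log2 ratio of 0.29 ± 0.08 (SE, n = 4), with STMN1-/- signals all above those of STMN1+/+ MEFs.

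Of 15 genes that set light chain phosphorylation, Prkg1, the cGMP-dependent kinase that relaxes smooth muscle, was up-regulated (0.66), and Rock2 (-0.34), a kinase that inhibits the light chain phosphatase, and Ppp1r14b (-0.31), an inhibitor of that phosphatase, were down-regulated. Of 11 channels and receptors of smooth muscle, 4 were up-regulated and 0 were down-regulated, at a median of 0.27. By the methods' t-test 1 was higher, as it was with normexp and loess, and 0 were lower by that test or at an unadjusted p under 0.05 (limma). The 4 were the endothelin receptor Ednra (log2 ratio 1.51, with 27287 ± 1190 units in STMN1-/- MEFs and 9569 ± 596 units in STMN1+/+ MEFs, SD, n = 4 arrays each), the potassium channel subunit Kcnmb1 (0.66), the angiotensin receptor Agtr1a (0.62) and the calcium release channel Ryr3 (0.57).

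Of 20 cytoskeletal and adhesion genes of smooth muscle, 3 were up-regulated, Pgm5, a protein of adhesion plaques (1.73), the integrin Itga8 (1.03) and the LIM protein Csrp2 (0.61), and 2 were down-regulated, among them the intermediate filament gene Vim (-0.28). Desmin (Des), the intermediate filament of muscle, did not pass at -0.31. Of 12 tropomyosins and actin cross-linkers, Lmod1, a smooth muscle leiomodin, was up-regulated (0.24), and 2 were down-regulated, among them the filamin Flnc (-0.32), at a median of -0.17. Of the 40 calls named in these lists, 21 held whichever array was left out. Those of Actc1, Ctgf, Flnc, Lmod1, Mef2d, Myl12a, Ppp1r14b, Rock2, Tgfb3, Tgfbr2, Tgfbr3 and Vim were lost whichever array was left out. Those of Actb, Agtr1a, Kcnmb1, Klf5, Mkl1, Ryr3 and Tcf21 were lost without at least 1 array (adjusted p 0.0275 to 0.122, limma). Under all alternatives 19 of the 40 held, since Hey1 and Hey2 were lost with normexp and loess. That setting kept 25 of the 40, and the methods' t-test and the fit with no filter on dim probes kept 28 each. With normexp and loess the log2 ratio was 1.03 for Heyl, 0.76 for Fap, -0.71 for Myh14 and -0.12 for Tcf21, of which Tcf21 did not pass.

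**Figure D4:**
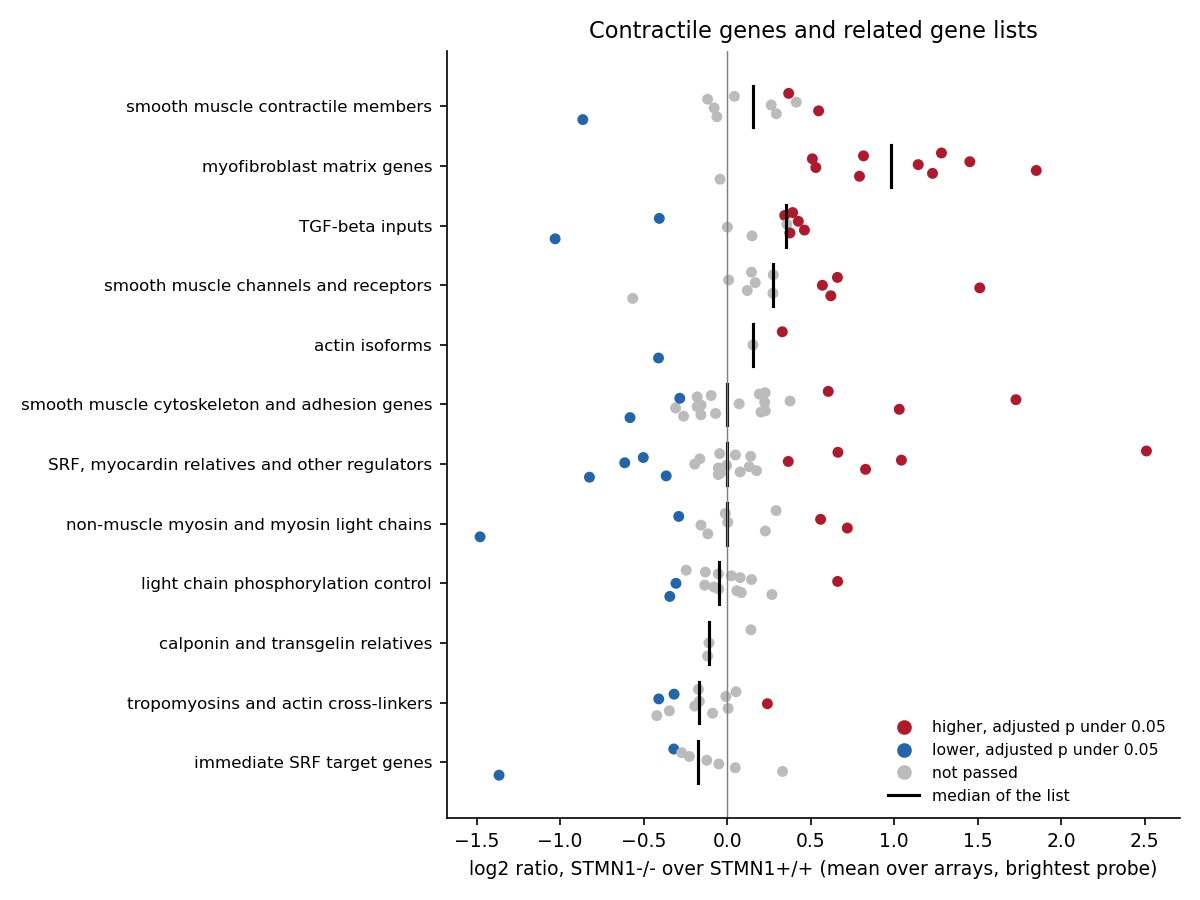
Log2 ratio of STMN1-/- over STMN1+/+ MEFs (horizontal axis) for the 10 contractile genes and the genes of 11 related lists (vertical axis), each gene by its brightest probe. Red and blue points passed the test upward and downward, grey points did not, and black bars are the list medians. The contractile genes center at 0.15 and the myofibroblast matrix genes at 0.98.

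Markers of other cells that the cultures could hold also moved with genotype, and their part in the ratios above was not tested. Of 7 pericyte markers 4 were up-regulated and 0 were down-regulated (0 also at an unadjusted p under 0.05 by limma and by the methods' t-test), with summed signals of 224 to 257 kU in STMN1-/- MEFs and 127 to 144 kU in STMN1+/+ MEFs per array. Notch3, already counted among the regulators above, is 1 of these 4. Of 11 markers of skeletal and cardiac muscle tested, 6 were up-regulated, Myl1 of the light chains above among them, and 1 was down-regulated. By the methods' t-test 3 were higher and 0 lower. The summed signals were 21.6 to 26.2 kU in STMN1-/- MEFs and 16.8 to 21.4 kU in STMN1+/+ MEFs. The down-regulated marker, Myh6, was not well above background in STMN1-/- MEFs on any array. It entered the test through STMN1+/+ MEFs alone, at a bound of at least 1.88-fold lower. All 6 epithelial markers tested were down-regulated, with sums of 46.3 to 53.3 kU in STMN1-/- MEFs and 60.6 to 68.1 kU in STMN1+/+ MEFs. Of these, Cdh1 and Cldn4 were not well above background in STMN1-/- MEFs on any array. They entered the test through STMN1+/+ MEFs alone, so their calls are not independent of the filter. By the bound used for Hey2, with the genotypes exchanged, they were at least 3.60-fold and 1.18-fold lower. Endothelial markers (3 tested of 7, at 2.56 to 2.77 kU in STMN1-/- MEFs and 2.54 to 3.03 kU in STMN1+/+ MEFs) split 1 up and 1 down. Of 5 macrophage markers 2 were up-regulated and 1 was down-regulated, with sums of 6.08 to 6.91 kU in STMN1-/- MEFs and 5.72 to 6.59 kU in STMN1+/+ MEFs. Myod1, 1 of the skeletal and cardiac muscle markers, had a log2 ratio of 0.03, whereas the median of those 11 markers was 0.35.

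**Figure D5:**
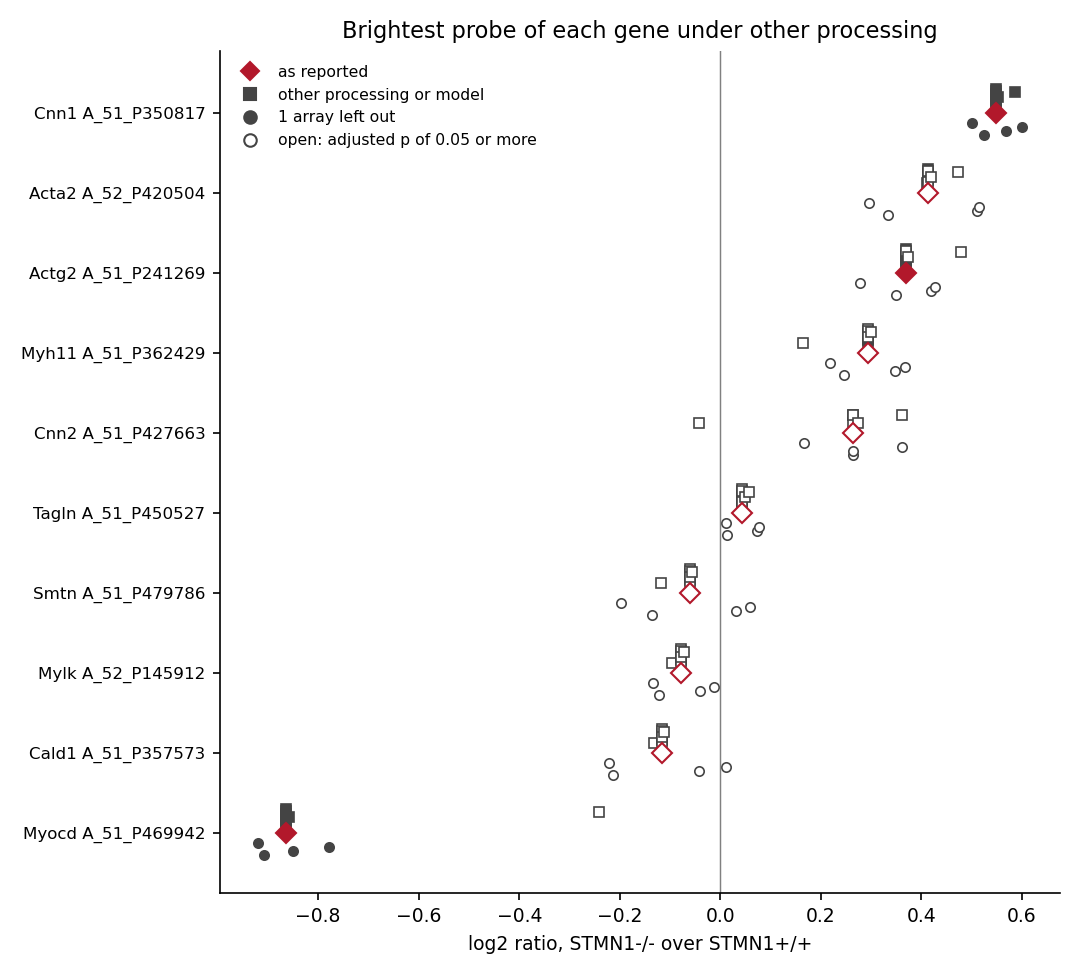
Log2 ratio of STMN1-/- over STMN1+/+ MEFs (horizontal axis) for the brightest probe of each gene (vertical axis) as reported (diamonds), under other processing or models (squares) and with 1 array left out (circles). Filled symbols have an adjusted p under 0.05 (limma, or the methods' t-test). Cnn1 stays filled throughout, Myocd is open at -0.24 once, Smtn and Cald1 cross 0 when 1 array is left out, and Cnn2 does so when outlier spots are kept.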

How the data were processed

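Total RNA of STMN1-/- and STMN1+/+ MEFs was measured on 4 Agilent 2-color arrays. The deposited intensity values come, per the file headers, from Feature Extraction 9.5.3.1, run by the authors on scans at high and low gain, with background detrending, LOWESS dye normalization within each array and surrogates for dim spots. The deposited log10 values are the ratio of Cy5 over Cy3 from the same program. The authors' lists of log2 ratios (GeneSpring GX) hold only probes that passed their test and were not used.

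Processed signals gave the log2 ratio for STMN1-/- against STMN1+/+, turned by the dye labels. The 472 to 711 outlier spots of an array were removed, spots of a probe were averaged within an array, and 13505 probes that were well above background nowhere or had no usable spot were dropped. The number of arrays, 4, limits the precision. The test against 0 used limma 3.58.1 (R 4.3.3), and plots were made in Python with matplotlib 3.10.9. On simulated data with 50 changed probes per size among 26591, that test found 0% of the 1.2-fold changes, 38.0% of the 1.5-fold, 56.0% of the 2-fold and 94.0% of the 4-fold changes. In the real data 22.4% of probes passed. With so few changed probes in the simulation, the adjustment was stricter there, so these shares do not give the sensitivity in the real data.

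All probes of the 10 genes are named. Of each related list, the genes named are the called ones, up to the 4 largest ratios or all where 5 or fewer were called in a direction, and other genes were named after their values were seen. A few of the called genes and 1 probe sequence are not reported here. Members and lists were chosen with earlier results of these data known. The alternatives are normexp at an offset of 50 followed by loess, median centring, the deposited log10 ratios, no filter or a stricter filter on dim probes, outlier spots kept, a dye coefficient, 2 ways of averaging dye-swapped arrays, the methods' t-test with Benjamini-Hochberg adjustment, each array left out and, for the genes, the median over probes.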

Additional observations from a re-analysis of the deposited data

Results flagged for a closer look

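Of 56 probes with 4 values examined, 15 of them probes of the contractile genes, 1 had an array far from the others. For Mef2d, a MADS-box factor, array 2 gave a log2 STMN1-/- over STMN1+/+ ratio of 0.46, and the others 0.33 to 0.34. Chance alone puts about 1 in 20 groups of 4 values past this limit.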

How the results depend on the processing

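Of the contractile genes, Cnn1 kept its call under all 14 alternatives and Myocd under 13. Main counts, higher and lower, were 2 and 1 for the 10 genes, 3 and 1 for their 18 probes, 31 and 17 for the related genes, and 3100 and 3094 for all probes. With normexp and loess they were 1 and 0 for genes, 1 and 0 for probes, and 999 and 1149 for all probes. With median centring 1 gene was higher. With no filter on dim probes 1 gene and 1 probe were higher, 9 related genes were lower, and 1967 probes were higher and 1871 lower among all. With the dye coefficient 4 genes and 6 probes were higher, 28 related genes were lower, and 5351 probes were higher and 5353 lower among all. Averaging array 1 with 3 and 2 with 4 gave 4 genes and 5 probes higher, and array 1 with 4 and 2 with 3 gave 4 and 6. Among all probes, 3475 were higher and 3385 lower in the first, and 3697 and 3604 in the second. The methods' t-test called 1 gene higher, 11 related genes lower, and 1977 probes higher and 1888 lower among all. With each array left out, 1 gene and 1 probe were higher every time, 1 to 2 probes lower, 6 to 10 related genes lower, and 1452 to 1648 probes higher and 1340 to 1537 lower among all, where fewer samples were fitted. The other causes were not tested. Log2 ratios changed sign for Cnn2 with outlier spots kept (-0.042) and, with arrays left out, for Acta2 A_52_P210078 (-0.078 to 0.35), Cald1 A_51_P357573 (-0.22 to 0.010), Smtn (-0.20 to 0.059) and Tagln A_52_P517683 (-0.093 to 0.19), none of them called. Apart from averaging dye-swapped arrays, no paired analysis was possible because each array already compares both genotypes and the 4 ratios form 1 group. The Myocd probes, at 223 to 687 and 95.8 to 181 units, were the dimmest of those tested for these genes.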
